A study of Homo sapiens with 6 samples.

Results

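Solute carriers are the membrane proteins that move nutrients, metabolites and ions into, out of and between the compartments of a cell. In BT20, a breast cancer line of the triple negative kind, 136 of them were well expressed, and their response to knockdown of cytokeratin 5 is described here. Of the 56478 genes with a symbol in the count table, 334 carry a solute carrier symbol made of a family number, the letter A and a member number. A carrier was taken when its mean over all 6 libraries was at least 5 CPM, the gene's count scaled to a common library total. SLC2A1, SLC2A3, SLC7A5, SLC7A11 and SLC3A2 were left out, and 4 of these 5 lay above the cut. Members were thus chosen by this mean level, which pools both groups and is a description, not a result. Just inside the cut lay SLC52A3, SLC6A8 and SLC2A10 at 5.06, 5.89 and 6.41 CPM. Just outside it lay SLC25A20, SLC29A3 and SLC27A2 at 4.88, 4.61 and 4.56 CPM.

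The tested cells carried the vector pLK0-shCK5-425222, a hairpin against cytokeratin 5 (group shCK5-22), and the other cells carried pLK0-shControl. Total RNA of 3 libraries per group was sequenced, from cells kept in serum-containing medium with no further treatment. Each group stands for 1 hairpin in 1 line, and no label tells whether replicates were cultured apart, so a p-value here speaks of the scatter among these samples, which may be technical. The libraries held 64855513, 61078311 and 53121206 counts in shCK5-22 and 47703937, 65541734 and 62688434 counts in shControl. The lowest count of any member in any library was 200. One library stood apart: chi-square per gene was 33.9 and 19.8 for shCK5-22 replicate 1 against replicates 2 and 3, and 3.45 to 5.07 for the other pairs within a group. Without that library, 34 carriers were higher and 39 lower in shCK5-22.

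KRT5, which encodes cytokeratin 5, had 21.1, 22.7 and 24.1 CPM in shCK5-22 cells, against 230.7, 246.6 and 244.3 CPM in shControl cells. It was 10.7-fold lower (log2 fold change -3.41, SE 0.04, adjusted p = 1.23e-20). Adjusted p-values here and below come from edgeR's quasi-likelihood test with Benjamini-Hochberg adjustment over all 18008 genes tested, and log2 fold changes are shCK5-22 over shControl. CPM levels of KRT5 and of all genes below are scaled by edgeR's library factors, except the markers that follow, which use the library totals alone. Summed markers of breast epithelium ranged from 8742 to 8980 CPM in shCK5-22 and from 9617 to 9906 CPM in shControl. Within that sum, CDH1, KRT17, KRT19 and EGFR were lower in every shCK5-22 library than in any shControl library. KRT19 had 1103, 1193 and 1153 CPM in shCK5-22 and 1725, 1883 and 1780 CPM in shControl. EPCAM, KRT8 and KRT18 overlapped between groups. Leukocyte markers summed to 4.48 to 6.39 CPM in shCK5-22 and 5.41 to 6.24 CPM in shControl. Endothelial markers summed to 18.8 to 31.4 CPM in shCK5-22 and 23.3 to 31.6 CPM in shControl. Fibroblast markers summed to 27.7 to 29.6 CPM in shCK5-22 and 32.0 to 33.1 CPM in shControl. COL1A1 makes most of the fibroblast sum, and other fibroblast markers went the other way: PDGFRB had 80, 46 and 66 counts in shCK5-22 and 0, 6 and 4 counts in shControl, LUM had 26, 16 and 24 counts in shCK5-22 and 4, 4 and 10 counts in shControl, and COL3A1 had 18, 10 and 8 counts in shCK5-22 and 2 counts in each shControl library. CD3E and DCN were at or near 0 in every library, PDGFRA was at 0 in all, and the part of these markers in the results was not tested. In bulk RNA, fewer cells of a kind and less RNA per cell cannot be told apart.

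Carriers are named by family, and members of a family often share a fold but not a substrate. Those of the plasma membrane feed cells with sugars, amino acids, metals and ions, and those of lysosomes and the Golgi serve these compartments. Most of the mitochondrial family exchanges metabolites across the inner membrane. Tumour cells depend on such carriers for fuel and building blocks.

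In shCK5-22 cells the carriers changed often, by little, and about equally in both directions. All 136 were tested. Of these, 37 were higher in shCK5-22, 36 were lower and 63 did not pass the threshold of 0.05 on the adjusted p. The 73 called carriers make 53.7% of the members, against 34.2% of all genes tested and 47.0% of the 10451 genes at the same CPM cut. By direction, 27.2% of the carriers were higher and 26.5% lower, against 24.8% and 22.2% of the genes at the same cut and 17.4% and 16.8% of all genes tested. The carriers' share was therefore near that of other genes at such levels. Their median log2 fold change was -0.01, against -0.01 over all genes tested and 0.01 at the same cut. The median size of the change was 0.15, against 0.18 over all genes tested and 0.13 at the same cut. Only SLC2A12 passed the threshold with a change of at least 2-fold. That was so for 3.56% of all genes tested and 1.27% of genes at the same cut. The 3 libraries of one group lay wholly above or below those of the other for 83 carriers, while 45.1% of all genes tested and 56.9% of those at the same cut did so. Summed over the members, carriers took 9893, 9679 and 9744 CPM in shCK5-22 and 9629, 9515 and 9531 CPM in shControl.

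**Figure D1:**
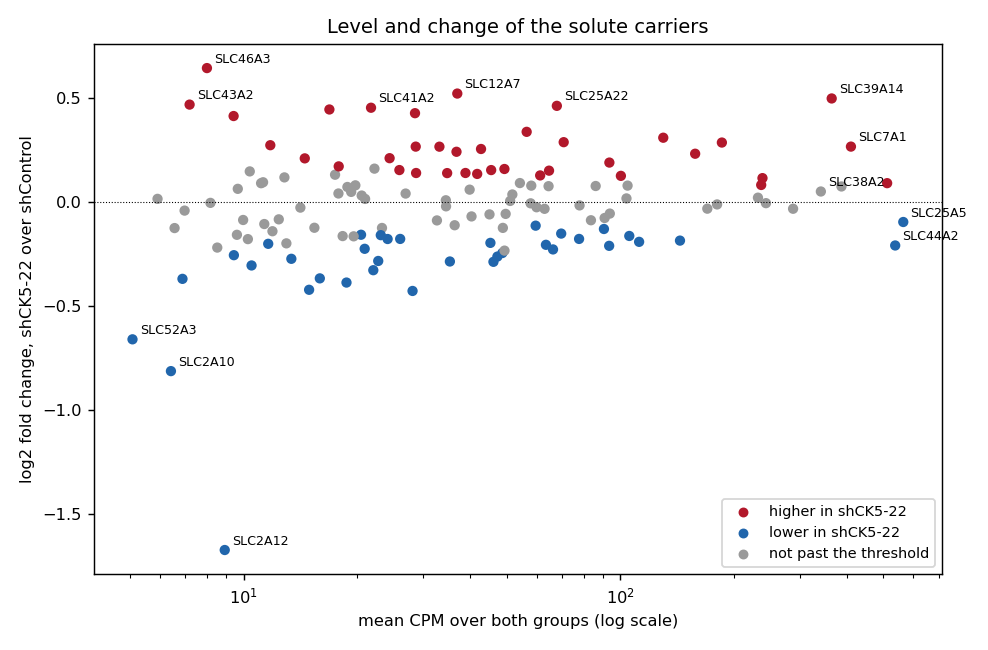
Mean level of each of the 136 carriers (CPM over both groups, log axis) against its log2 fold change, shCK5-22 over shControl; colours give the call at an adjusted p of 0.05. Most points lie between -0.5 and 0.5 at every level, and SLC2A12, at -1.67, lies farthest from 0.

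Of the carriers under the CPM cut, 91 of 193 could be tested, and 7 were higher and 16 lower in shCK5-22. That is 25.3% of those tested, on lower counts.

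Counts called per substrate group, here and below, stand beside the shares of genes at the same CPM cut. These were 47.0% called, 24.8% higher and 22.2% lower, and 34.2% of all genes tested were called. The group counts themselves were not tested. Among carriers of sugars and sugar phosphates, 4 of 11 were higher, 4 were lower and the median log2 fold change was -0.02. SLC2A12, the hexose carrier GLUT12, had 4.43, 3.65 and 4.69 CPM in shCK5-22, against 13.2, 13.9 and 13.6 CPM in shControl. All 3 shCK5-22 libraries were far under the lowest shControl library. Its level was 3.19-fold lower (log2 fold change -1.67, SE 0.10, adjusted p = 1.27e-11), and it stayed between -1.74 and -1.57 under all 14 alternative fits. The gene lies on chromosome 6 (GRCh38 chr6:133988697-134052636, minus strand). Its exons overlap those of TBPL1 on the other strand, and TBPL1 averaged 13.9 CPM in shCK5-22 and 15.1 CPM in shControl (adjusted p = 0.266). Whether the counting used strand is not stated, so counts of a carrier with such an overlap may hold reads of its partner.

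SLC2A10, the hexose carrier GLUT10, had 5.15, 3.98 and 4.81 CPM in shCK5-22, against 8.24, 8.53 and 7.74 CPM in shControl, a log2 fold change of -0.81 (SE 0.11, adjusted p = 4.02e-06). SLC2A6, the lysosomal hexose carrier GLUT6, went the other way, with 64.4, 59.5 and 65.1 CPM in shCK5-22 and 49.3, 51.1 and 49.0 CPM in shControl (log2 fold change 0.34, adjusted p = 2.77e-06). The called GLUT carriers, family SLC2, thus went both ways. Per kilobase of exon, SLC2A12 stood at 0.953 CPM in shCK5-22 and 3.03 CPM in shControl, while SLC50A1, the sugar carrier SWEET1 and the highest of the sugar carriers, stood at 18.3 CPM in shCK5-22 and 22.0 CPM in shControl. SLC50A1 fell by 0.26 on the log2 scale (adjusted p = 7.07e-05), and 5.43% of its 50-base windows occur elsewhere among the transcripts. Both SLC2A12 and SLC2A10 averaged under 5 CPM in shCK5-22 and entered the set through shControl, so their being lower was in part fixed by the cut.

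**Figure D2:**
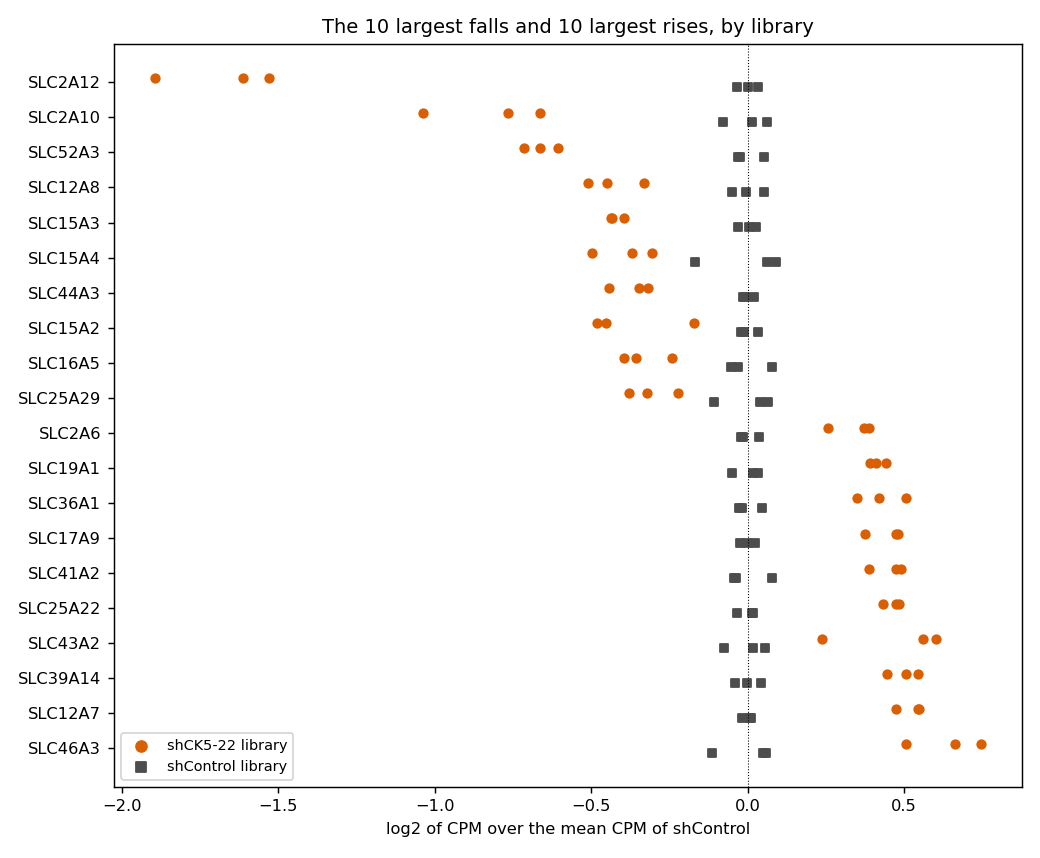
The 10 largest falls and 10 largest rises among called carriers whose groups do not overlap, drawn per library as log2 of CPM over the shControl mean (circles, shCK5-22; squares, shControl). The lack of overlap was a condition of the choice; SLC2A12 lies apart from the other falls, of which SLC2A10 at -0.81 is the next.

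To show what lies at the starts of the carriers with the largest fall and the largest rise, the promoters of SLC2A12 and SLC46A3 are printed from RefSeq (GRCh38.p14), 250 bases before to 50 after the start, 5′ to 3′ on the gene's strand. Capitals mark an AP-1 site in the first, and a pair of CCAAT boxes in the second. The windows are chr6:134052575-134052874 and chr13:28718921-28719220, both on the minus strand.
SLC2A12: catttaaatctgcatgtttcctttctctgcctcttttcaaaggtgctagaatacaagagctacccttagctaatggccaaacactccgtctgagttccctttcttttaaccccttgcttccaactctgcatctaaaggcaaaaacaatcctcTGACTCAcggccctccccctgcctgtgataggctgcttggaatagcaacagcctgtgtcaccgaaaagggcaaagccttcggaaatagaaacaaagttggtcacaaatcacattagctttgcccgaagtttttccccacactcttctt
SLC46A3: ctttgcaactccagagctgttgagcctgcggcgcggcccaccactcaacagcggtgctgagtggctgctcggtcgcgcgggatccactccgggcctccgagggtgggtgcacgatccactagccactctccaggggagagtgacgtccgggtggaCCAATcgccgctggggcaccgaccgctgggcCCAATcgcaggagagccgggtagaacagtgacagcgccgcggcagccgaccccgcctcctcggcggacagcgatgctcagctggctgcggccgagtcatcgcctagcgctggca

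The AP-1 letters TGACTCA start 98 bases before the SLC2A12 start. The CCAAT boxes of SLC46A3 start 95 and 64 bases before its start. The table held 165 promoters for 105 of the 136 carriers, and 35116 promoters in all. TGANTCA was found on either strand in 5.45% of carrier promoters and 7.71% of all promoters. CCAAT was found in 38.2% of carrier promoters and 34.6% of all. The E-box CACGTG was in 13.9% of carrier promoters and 7.26% of all. The GC box GGGCGG was in 66.7% of carrier promoters and 45% of all, and TATAAA in 4.24% of carrier promoters and 11.5% of all. A promoter counts once per motif, and matches of different motifs may overlap. Median GC content was 66.3% in carrier promoters and 58.7% in all, and the part of base composition in these shares was not tested. A match describes letters only.

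Among amino acid carriers, 5 of 13 were higher and 3 lower (median 0.06). SLC7A1, the arginine and lysine importer CAT1, had 446.8, 449.8 and 446.3 CPM in shCK5-22, against 374.4, 372.5 and 368.9 CPM in shControl. The groups were apart and tight, and the log2 fold change was 0.27 (SE 0.03, adjusted p = 7.85e-08). Per kilobase of exon it stood at 58.2 CPM in shCK5-22 and 48.4 CPM in shControl, near SLC38A2, another amino acid importer, at 52.5 CPM in shCK5-22 and 50.7 CPM in shControl. Both SLC36 carriers above the CPM cut rose. SLC36A1, the lysosomal proton-coupled carrier PAT1, had 34.5, 31.0 and 32.5 CPM in shCK5-22 and 25.1, 24.01 and 23.85 CPM in shControl (log2 fold change 0.43, adjusted p = 2.46e-06). SLC36A4, which encodes PAT4, had a log2 fold change of 0.27 (adjusted p = 0.000756). SLC43A2, the branched-chain carrier LAT4, had 7.08, 9.12 and 8.86 CPM in shCK5-22 and 5.70, 6.09 and 6.25 CPM in shControl (log2 fold change 0.47, adjusted p = 0.00127). Its lowest shCK5-22 library, replicate 1, stood nearer to shControl than the other two. SLC1A5, the glutamine exchanger ASCT2, fell by 0.16 on the log2 scale (adjusted p = 0.00049).

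Some carriers varied more within a group than between groups. SLC38A2, the neutral amino acid importer SNAT2, had 413.4, 286.9 and 340.1 CPM in shCK5-22 and 385.7, 292.3 and 326.9 CPM in shControl (log2 fold change 0.05, SE 0.19, adjusted p = 0.877). SLC6A9, the glycine transporter GlyT1, had 51.0, 35.1 and 49.6 CPM in shCK5-22 and 60.9, 47.4 and 51.7 CPM in shControl (log2 fold change -0.23, SE 0.19, adjusted p = 0.454). In both genes replicate 1 was highest and replicate 2 lowest in each group, although same-numbered libraries were hardly correlated over all genes in their deviations. With the replicate number as a block, SLC6A9 passed the threshold (adjusted p = 0.00285). These 2 genes were chosen after their values were seen. SLC6A6, the taurine transporter, had the same order of replicates but no overlap, with 219.9, 190.3 and 203.4 CPM in shCK5-22 and 175.2, 157.9 and 170.1 CPM in shControl (log2 fold change 0.29, adjusted p = 0.00224). SLC6A8, the creatine transporter, had a log2 fold change of 0.02 (SE 0.12, adjusted p = 0.940).

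**Figure D3:**
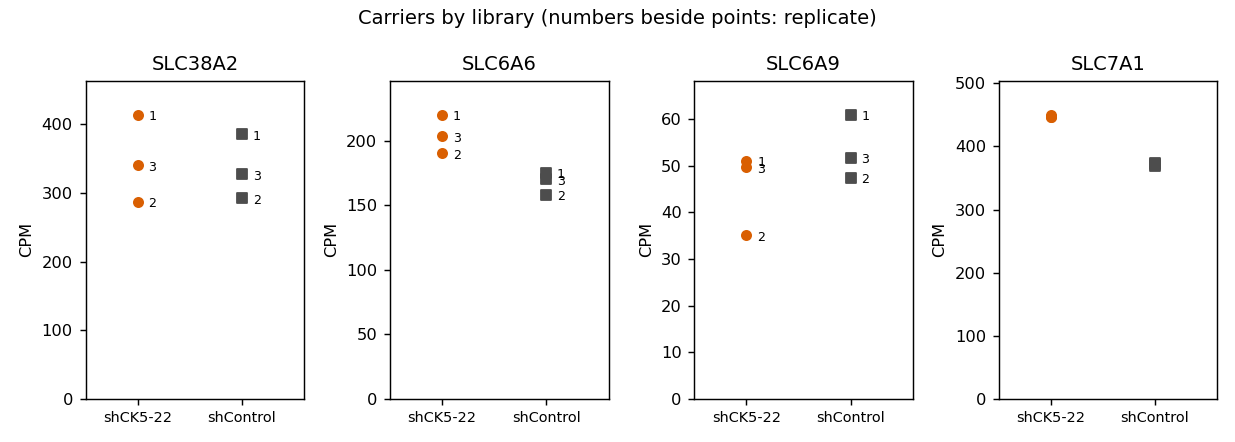
CPM per library of SLC38A2, SLC6A6, SLC6A9 and SLC7A1 on axes that start at 0; numbers give the replicate, except for SLC7A1, whose points coincide. SLC38A2 and SLC6A9 overlap between groups, and SLC6A6 and SLC7A1 lie higher in shCK5-22 in all 3 libraries.

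The zinc importer SLC39A14 was the most abundant of the carriers with the 10 largest rises. Among 15 carriers of zinc and related metals, 5 were higher and 3 lower (median -0.00). Of the higher, SLC30A6, SLC30A5 and SLC39A6 lost their call in 8, 5 and 5 of 14 alternative fits. Of the lower, SLC39A11 lost it in 3. SLC39A14 encodes ZIP14, which also imports iron and manganese, and had 440.5, 410.8 and 428.3 CPM in shCK5-22, against 310.8, 293.7 and 301.3 CPM in shControl. All shCK5-22 libraries were above all shControl libraries (log2 fold change 0.50, SE 0.03, adjusted p = 6.69e-11). SLC39A13, the secretory pathway carrier ZIP13, rose by 0.26 on the log2 scale (adjusted p = 9.81e-05). The zinc and manganese importer SLC39A8 (ZIP8) fell by 0.18 (adjusted p = 0.000585), and the zinc importer SLC39A10 (ZIP10) fell by 0.23 (adjusted p = 0.000666). SLC39A7, the endoplasmic reticulum carrier ZIP7, stood at 85.5 CPM per kilobase in shCK5-22 and 85.8 CPM per kilobase in shControl (adjusted p = 0.927). SLC39A1 (ZIP1) was near it at 84.0 CPM in shCK5-22 and 85.8 CPM in shControl, but shares 55.2% of its 50-base windows with other transcripts.

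Of 5 carriers of iron, copper, magnesium and haem, 3 were higher and 2 did not pass. The 3 that rose were the magnesium carrier family SLC41. SLC41A2 had 25.6, 25.9 and 24.1 CPM in shCK5-22 and 19.4, 17.9 and 17.9 CPM in shControl (log2 fold change 0.45, SE 0.06, adjusted p = 3.64e-06). SLC41A3 rose by 0.16 (adjusted p = 0.00476) and SLC41A1 by 0.13 (adjusted p = 0.0202) on the log2 scale. SLC41A1 lost its call without shCK5-22 replicate 3, shControl replicate 1 or shControl replicate 3 (adjusted p = 0.063, 0.146 and 0.0727), within a range of 0.00906 to 0.146 over all alternatives. SLC11A2, the iron importer DMT1, had a log2 fold change of 0.04 (SE 0.06, adjusted p = 0.623).

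In the cation-chloride cotransporter family SLC12, which sets cell chloride and volume, members moved in opposite directions. SLC12A7, the potassium-chloride cotransporter KCC4, had 44.3, 42.1 and 44.2 CPM in shCK5-22, against 30.51, 30.45 and 29.95 CPM in shControl (log2 fold change 0.52, SE 0.05, adjusted p = 1.45e-08). SLC12A4, which encodes KCC1, also rose (0.15, adjusted p = 0.00458). SLC12A2, the sodium-potassium-chloride importer NKCC1, had 45.4, 39.1 and 39.8 CPM in shCK5-22 and 53.2, 48.3 and 50.4 CPM in shControl, and so fell by 0.29 on the log2 scale (adjusted p = 0.000433). SLC12A8, a relative in the same family, fell by 0.43 (adjusted p = 4.17e-06). Over all 11 anion carriers, 4 were higher and 2 lower (median -0.09). SLC4A7, the sodium-bicarbonate cotransporter NBCn1, rose by 0.29 (adjusted p = 0.00869). SLC4A2, the chloride-bicarbonate exchanger AE2 and highest of these per kilobase, rose by 0.12 (adjusted p = 0.00799), a call that was lost without shControl replicate 3 (adjusted p = 0.071, range over alternatives 0.00106 to 0.071).

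**Figure D4:**
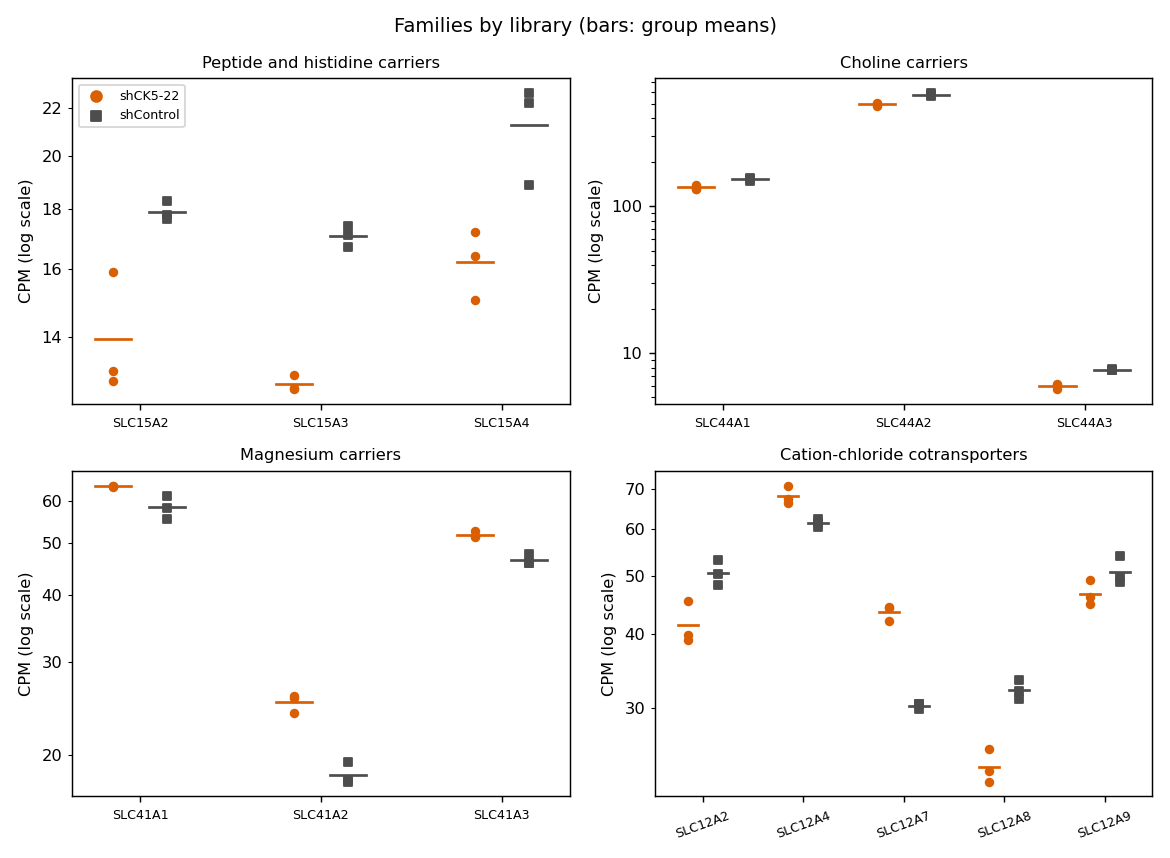
CPM per library (log axes; circles, shCK5-22; squares, shControl; bars, group means) for members of the SLC15, SLC44, SLC41 and SLC12 families. SLC15 and SLC44 members are lower in shCK5-22, SLC41 members are higher, and SLC12 members go both ways.

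Of 8 carriers of organic ions, drugs and peptides, 6 were lower and 1 higher, with a median log2 fold change of -0.24, where 22.2% of genes at the same cut were lower. SLC22A15 lost its call without shCK5-22 replicate 2 or 3 (adjusted p = 0.0714 and 0.128) and without shControl replicate 1, 2 or 3 (0.0724, 0.0775 and 0.101), as well as under DESeq2 (0.0516) and with no filter (0.0543), within 0.0241 to 0.128 over all alternatives. SLC22A18 lost it without shControl replicate 1 (adjusted p = 0.0606, range 0.0022 to 0.0606). All 3 carriers above the CPM cut from the SLC15 family, which moves small peptides and histidine with protons, fell. SLC15A3, a lysosomal carrier, had 12.65, 12.63 and 12.98 CPM in shCK5-22 and 17.1, 16.7 and 17.4 CPM in shControl (log2 fold change -0.42, adjusted p = 2.79e-05). Its exons overlap TMEM132A on the other strand, which went the other way (0.48, adjusted p = 5.05e-10). SLC15A4, also lysosomal, fell by 0.39 (adjusted p = 0.000317), and SLC15A2, the plasma membrane importer PEPT2, by 0.37 (adjusted p = 0.000703). SLC22A5, the carnitine importer OCTN2, fell by 0.20 (adjusted p = 0.00292).

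Among 10 carriers of vitamins, cofactors and choline, 5 were lower and 1 higher (median -0.15). The 3 members of the choline carrier family SLC44 above the CPM cut fell. SLC44A2, the most abundant of them, had 508.7, 485.1 and 501.2 CPM in shCK5-22, against 590.4, 572.0 and 564.9 CPM in shControl (log2 fold change -0.21, SE 0.03, adjusted p = 7.64e-06). SLC44A1 fell by 0.18 (adjusted p = 0.000146) and SLC44A3 by 0.37 (adjusted p = 0.00342). SLC52A3, the riboflavin carrier RFVT3, had 4.08, 3.91 and 3.79 CPM in shCK5-22 and 6.08, 6.10 and 6.44 CPM in shControl (log2 fold change -0.66, adjusted p = 5.2e-05). It too entered the set through shControl alone. The other riboflavin carrier, SLC52A2, had a log2 fold change of 0.08 (adjusted p = 0.0835). SLC19A1, the reduced folate carrier, rose, with 10.6, 10.7 and 10.9 CPM in shCK5-22 and 8.24, 7.79 and 8.15 CPM in shControl (log2 fold change 0.41, adjusted p = 0.000301). Its exons overlap those of COL18A1 on the other strand, which averaged 22.6 CPM in shCK5-22 and 15 CPM in shControl (0.59, adjusted p = 2.46e-07). With strand use not stated, the rise of SLC19A1 and reads from COL18A1 cannot be told apart.

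The mitochondrial family was the largest group, with 34 members, of which 7 were higher and 10 lower (median 0.02). This group includes the peroxisomal cofactor carrier SLC25A17, which fell by 0.28 (adjusted p = 0.000682). It also includes SLC25A46, an outer membrane relative that did not pass (adjusted p = 0.0942). SLC25A22, the glutamate carrier GC1, had 77.0, 79.8 and 79.2 CPM in shCK5-22 and 55.8, 57.6 and 57.8 CPM in shControl (log2 fold change 0.46, SE 0.04, adjusted p = 3.29e-09). SLC25A24, a calcium-regulated ATP-Mg/phosphate carrier, rose by 0.23 (adjusted p = 2.47e-05), while its relative SLC25A23 fell by 0.19 (adjusted p = 0.000221). The citrate carrier SLC25A1 fell by 0.21 (adjusted p = 3.37e-05) and the oxoglutarate-malate carrier SLC25A11 by 0.24 (adjusted p = 0.000111). SLC25A29, a basic amino acid carrier, had the group's largest fall (-0.30, adjusted p = 0.00553).

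The ADP/ATP carriers exchange ATP made in mitochondria for cytosolic ADP. Among them, SLC25A5 held the highest level per kilobase of any member with a length. SLC25A5 (ANT2) stood at 363.8 CPM per kilobase in shCK5-22 and 388.6 CPM per kilobase in shControl. Its library values were 517.1, 577.0 and 542.8 CPM in shCK5-22 and 579.6, 591.9 and 577.3 CPM in shControl (log2 fold change -0.10, SE 0.03, adjusted p = 0.0336). The call was lost in 5 of 6 leave-one-out fits, all except the one lacking shCK5-22 replicate 2. Without shCK5-22 replicate 1 and replicate 3 the adjusted p was 0.147 and 0.117, and without shControl replicates 1, 2 and 3 it was 0.0715, 0.116 and 0.0776. Over all alternatives the adjusted p lay between 0.00128 and 0.147. The other ADP/ATP carriers were called higher, with calls lost in some fits. SLC25A4 (ANT1) rose by 0.14 (adjusted p = 0.0300) and SLC25A6 (ANT3) by 0.09 (adjusted p = 0.0358) on the log2 scale. Over 14 alternative fits, SLC25A4 lost its call in 4 (adjusted p up to 0.134) and SLC25A6 in 6 (up to 0.228). SLC25A4 stood at 7.51 CPM per kilobase in shCK5-22 and 6.81 CPM per kilobase in shControl, and SLC25A6 had no length.

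Monocarboxylate carriers, which include the lactate carriers, had 2 of 6 lower and 4 that did not pass (median -0.08). SLC16A1 (MCT1) had 110.7, 103.1 and 108.5 CPM in shCK5-22 and 100.8, 100.7 and 103.4 CPM in shControl (log2 fold change 0.08, SE 0.03, adjusted p = 0.0848). The lactate exporter SLC16A3 (MCT4) had a log2 fold change of -0.03 (SE 0.04, adjusted p = 0.581). SLC16A5 (MCT6) was lower, with 20.8, 18.7 and 19.2 CPM in shCK5-22 and 25.99, 24.09 and 23.72 CPM in shControl (log2 fold change -0.33, adjusted p = 0.000242). SLC16A13 passed narrowly (-0.16, adjusted p = 0.0481) and lost its call under 9 alternatives, with adjusted p between 0.0293 and 0.168 over all of them. These included leaving out shCK5-22 replicate 2 or 3 (0.086 and 0.157) and shControl replicate 1, 2 or 3 (0.168, 0.0849 and 0.0585).

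Of 4 carriers of nucleosides and nucleobases, 3 were higher and 1 did not pass (median 0.20). SLC17A9, the vesicular ATP transporter, had 19.87, 19.97 and 18.54 CPM in shCK5-22 and 14.6, 14.3 and 14.1 CPM in shControl (log2 fold change 0.45, SE 0.06, adjusted p = 1.02e-05). The equilibrative carrier SLC29A1 (ENT1) rose by 0.19 (adjusted p = 0.000173), and SLC43A3, a purine nucleobase carrier with 24.3% of its windows shared with other transcripts, by 0.21 (adjusted p = 0.00759). SLC29A2 (ENT2) had a log2 fold change of -0.08 (adjusted p = 0.457).

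The phosphate importers split. SLC20A1 (PiT1) had 150.5, 134.8 and 146.4 CPM in shCK5-22 and 123.5, 107.5 and 117.4 CPM in shControl (log2 fold change 0.31, adjusted p = 0.000564), whereas SLC20A2 (PiT2) fell by 0.15 (adjusted p = 0.00346). Among 6 carriers of sodium, protons and calcium, 1 was higher and 5 did not pass (median -0.06). SLC46A3, a lysosomal carrier, had the largest rise of all members, with 10.5, 8.87 and 9.88 CPM in shCK5-22 and 6.49, 5.77 and 6.45 CPM in shControl (log2 fold change 0.64, SE 0.09, adjusted p = 1.37e-05). It lies at GRCh38 chr13:28700064-28718970 on the minus strand. The highest of the remaining groups per kilobase did not pass the threshold: the fatty acid carrier SLC27A4 (-0.01, SE 0.04, adjusted p = 0.941), the UDP-galactose carrier SLC35A2 (0.01, SE 0.04, adjusted p = 0.937) and SLC10A3 (-0.02, SE 0.04, adjusted p = 0.813).

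**Figure D5:**
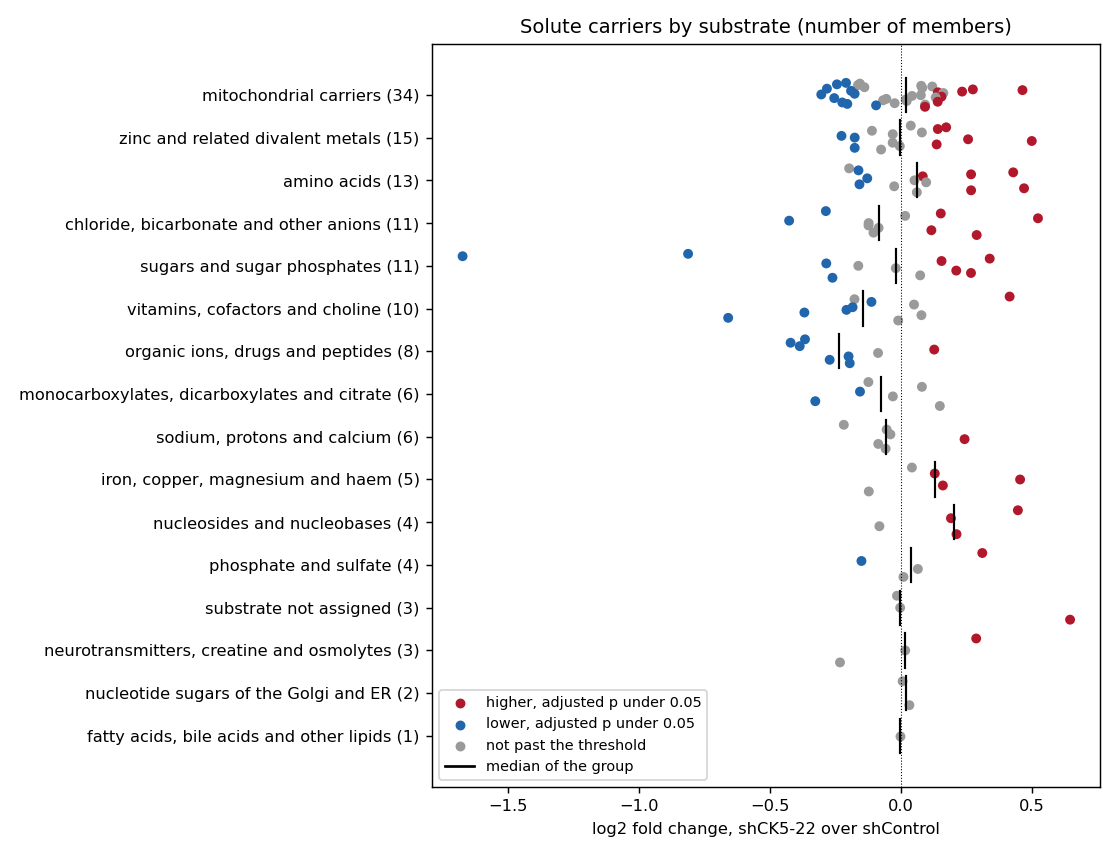
Log2 fold change, shCK5-22 over shControl, of each carrier by substrate group (number of members in brackets); colours give the call and black ticks the median of each group. Medians lie between -0.24 (organic ions, drugs and peptides) and 0.20 (nucleosides and nucleobases), and most groups hold points on both sides of 0.

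Partners of the carriers were read from lists that had been written with earlier results known. Their counts stand beside 34.2% of all genes tested called, 17.4% higher and 16.8% lower. For genes at the CPM cut of the carriers these shares were 47.0%, 24.8% and 22.2%, and the lists themselves were not cut by level. Of 18 accessory and regulatory proteins tested, 11 were higher and 3 lower (median 0.20). NEDD4L, a ubiquitin ligase that acts on membrane channels and carriers, had 189.0, 171.2 and 172.9 CPM in shCK5-22 and 119.0, 108.3 and 112.9 CPM in shControl (log2 fold change 0.65, adjusted p = 7.26e-10). STOM, a membrane scaffold, averaged 1.22 CPM in shCK5-22 and 0.599 CPM in shControl (log2 fold change 1.04, adjusted p = 0.00258). Of 13 iron handling genes, 5 were higher and 3 lower (median -0.04). TFRC, the transferrin receptor, had 629.3, 678.5 and 653.3 CPM in shCK5-22, against 378.2, 376.3 and 376.6 CPM in shControl (log2 fold change 0.79, SE 0.03, adjusted p = 1.91e-14). HFE, which binds that receptor, fell by 0.41 (adjusted p = 2.57e-05). Of 24 genes of amino acid sensing, 8 were higher and 3 lower (median 0.04). RRAGD, a lysosomal GTPase, rose by 1.10 (adjusted p = 3.88e-07), and TFEB, a transcription factor of lysosome genes, fell by 0.995 on the log2 scale (adjusted p = 4.64e-09). Among 5 metallothionein and zinc sensing genes tested, 1, MT2A, was higher (0.24, adjusted p = 2.74e-05), 4 did not pass, and the median was 0.03.

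Exons of 61 of the 136 carriers overlap those of another gene, on the opposite strand for 52, and 8 share over 5% of their 50-base windows with other transcripts. Among the 73 carriers with neither, 22 were higher and 20 lower (57.5%). Among the remaining 63, 15 were higher and 16 lower (49.2%).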

How the data were processed

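Counts per gene for 6 BT20 libraries were deposited by the authors as 1 table of raw counts, and are whole numbers. Cutadapt, STAR, SAMtools and Cufflinks and the build GRCh38 are named per the submitters' processing notes. For versions, the counting step and its use of strand: not given in the sources used here. Per the file headers, all libraries carry the same lane code.

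Rows whose symbol had become a calendar date (27 rows, 0.167 to 0.175% of counts) stayed out of library sizes and tests. Counts were fitted in R 4.3.3 with edgeR 4.0.16 (filterByExpr, TMM, robust glmQLFit, glmQLFTest, group only) on 18008 genes, biological coefficient of variation 5.01%. The SE of a log2 fold change is its size over the square root of F. The scripts were tested on simulated data. DESeq2 1.42.0 and limma-voom (limma 3.58.1) served as alternatives, beside other scalings, filters and left-out libraries. A count of 3, taken as the floor, is 0.0458 to 0.0629 CPM. No 2 replicates agreed within sampling noise.

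Over all genes tested, deviations of same-numbered libraries from their group means were hardly correlated, at 0.0164, 0.0517 and -0.00678. Such correlations cannot decide whether some genes share a replicate effect, and a fit with a replicate block is given below. Coordinates, overlaps and lengths come from GENCODE (GRCh38), matched by symbol for 135 of 136 members, with SLC25A6 left out. Substrate groups, 7 related lists and the members were chosen with earlier results of these data known. Named were the 10 largest rises and falls without overlap, the 2 largest calls and highest level per length of each group, the carriers beside the cut and the 2 largest calls of each list; others were chosen after their values were seen. Motifs were also chosen after seeing the data. Some members named by this rule are not reported here.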

Additional observations from a re-analysis of the deposited data

How the results depend on the processing

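Over 14 alternative fits, 49 of the 73 called carriers kept their call in each (23 higher, 26 lower), 24 lost it in at least 1, and none of the 73 changed direction. Of the uncalled carriers, 18 passed the threshold in at least 1 fit and 18 changed sign in at least 1. Leaving out 1 library gave 28 to 34 higher and 29 to 39 lower carriers, and an adjusted p of 0.01 gave 26 and 28. KRT5 stayed low in every fit. The replicate block gave 39 higher and 41 lower carriers, adding 7 calls and removing none, with KRT5 at -3.41, a median log2 fold change of -0.01 over the carriers, and 3456 higher and 3287 lower genes in all. The median of the carriers was -0.0225 with library size only, -0.0168 with a filter of 1 CPM, -0.0181 to -0.0068 with 1 library left out, 0.0006 for carriers of at least 10 CPM and -0.0262 for those of at least 1 CPM. With overlapping or repeated carriers removed, an alternative chosen after seeing the data, 22 were higher and 20 lower, from fewer carriers. Uncalled carriers near 0 changed sign: SLC27A4 (0.0004) and SLC39A7 (0.0011) under upper quartile scaling; SLC35A2 with library size only (-0.0085) and a filter of 1 CPM (-0.0027); SLC6A8 with limma-voom (-0.0125). With 1 library left out, the log2 fold change ranged from -0.0366 to 0.0316 for SLC27A4, -0.0295 to 0.0138 for SLC39A7, -0.0161 to 0.0324 for SLC35A2, -0.1227 to 0.1232 for SLC6A8 and -0.0491 to 0.0277 for SLC10A3. Their cause was not tested. The SE was 0.03 for SLC39A14, at a high level, and 0.11 for SLC2A10, near the cut. The part of counting depth in the calls was not tested.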

Other observations

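Other transport genes were read from lists beside 34.2% of all genes tested called and 47.0% of genes at the carriers' CPM cut. These lists were not cut by level. Of 23 genes of the ABC transporter family tested, 4 were higher and 11 lower in shCK5-22 (65.2% called, median log2 fold change -0.02). Most of this family pump their substrates with ATP, but ABCE1 and the ABCF genes do not. ABCF1 and ABCF2 were among the higher genes, and ABCF3 and ABCE1 among the lower. ABCC5, an exporter of cyclic nucleotides, had 56.2, 52.1 and 52.1 CPM in shCK5-22, against 85.7, 78.8 and 83.9 CPM in shControl (-0.63, adjusted p = 2.01e-10). ABCE1, a ribosome recycling factor of the same family and no transporter, fell by 0.60 (adjusted p = 1.48e-07).

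Of 22 ion pump genes tested, 4 were higher and 4 lower (36.4% called, median 0.00). That is near the share of all genes tested and under that of genes at the carriers' CPM cut. The plasma membrane calcium pump ATP2B1 had 84.6, 76.4 and 77.2 CPM in shCK5-22 and 55.2, 55.3 and 57.6 CPM in shControl (0.50, adjusted p = 7.22e-09). ATP2A3, a calcium pump of the endoplasmic reticulum, averaged 0.484 CPM in shCK5-22 and 1.19 CPM in shControl (-1.31, adjusted p = 0.000546).

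Of 44 transporters tested whose symbols fall outside the carrier pattern, 7 were higher and 7 lower (31.8% called, median 0.00). This too is near the share of all genes tested and under that of genes at the carriers' CPM cut. The prostaglandin carrier SLCO2A1 had 10.1, 10.4 and 11.1 CPM in shCK5-22 and 4.16, 6.75 and 6.22 CPM in shControl (0.87, adjusted p = 0.000148). The organic anion carrier SLCO4C1 had 2, 8 and 2 counts in shCK5-22 and 50, 76 and 54 counts in shControl (adjusted p = 6.01e-07).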
